A study of Mus musculus with 9 samples.

Results

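The genes described here are those of the mitochondrial ribosome: every gene whose symbol begins with Mrpl or Mrps followed by a number, together with Ict1. The rule took the symbols from the authors' gene table and kept those with a row in the deposited expression matrix. It gave 77 genes of 14479 in the matrix, 47 named Mrpl (large subunit), 29 named Mrps (small subunit) and Ict1. All 77 symbols that matched had a row. The only measured value the rule used was presence in that matrix, in which each gene reaches at least 1 FPKM in some library (fragments normalised to transcript length and library size). So the members were selected on symbol and presence, but the group and Ict1 were picked out with earlier results of these data known. The tests below are therefore given as descriptions from a fit over all genes and not as independent evidence for the group.

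The hearts came from newborn CD-1 mice operated on postnatal day 1 and collected on postnatal day 2, and RNA was taken from the lower part of the ventricles, the apex. There were 3 groups of 3 libraries. In the first the ventricular apex was resected and the left vagus nerve was cut (called resection with vagotomy here). In the second the apex was resected and the nerve was left alone (resection), and in the third the surgery was a sham operation. All 3 groups share strain, age and tissue, and a vagotomy without resection is not among them. The labels do not say whether the libraries of a group came from separate pups, so every p-value measures only the spread between these libraries, which may be technical.

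Mitochondria carry their own ribosome, built from nuclear-encoded proteins on RNAs encoded by mitochondrial DNA. It makes the few membrane subunits of the respiratory chain and ATP synthase that mitochondrial DNA encodes, and the heart, which depends on oxidative metabolism, is sensitive to its loss. In humans, variants in several of these genes, among them MRPL3, MRPL44 and MRPS22, cause infantile cardiomyopathy. Ict1, now named Mrpl58, belongs to the family of bacterial release factors, sits in the large subunit and hydrolyses peptidyl-tRNA on stalled mitochondrial ribosomes. By known structure 50 of the 77 products lie in the large subunit, because Mrps30, Mrps18a and Ict1 are counted there, and 26 lie in the small subunit. Mrps36 is a subunit of the 2-oxoglutarate dehydrogenase complex rather than of the ribosome. Of the ribosomal members, 44 have a counterpart in the bacterial ribosome, 29 are specific to the mitochondrial ribosome and 3 are the Mrps18 paralogues. Ict1 is counted among the 29, although its family is bacterial.

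Ict1 lies on chromosome 11 at 115403752 to 115412674 on the plus strand of GRCm38. Promoters are shown for the pair of members with the largest falls and the pair with the largest rises past the threshold between resection with vagotomy and resection, since these carry the comparison described below. Each run is the 250 bases before the first RefSeq start of the gene on GRCm38.p6, 5′ to 3′ on the gene's strand, and capitals mark the motif matches found by search. The windows are chr11:115403502-115403751 (plus) for Ict1, chr5:129715247-129715496 (plus) for Mrps17, chr2:24975099-24975348 (minus) for Mrpl41 and chr3:95871515-95871764 (minus) for Mrps21.
Ict1: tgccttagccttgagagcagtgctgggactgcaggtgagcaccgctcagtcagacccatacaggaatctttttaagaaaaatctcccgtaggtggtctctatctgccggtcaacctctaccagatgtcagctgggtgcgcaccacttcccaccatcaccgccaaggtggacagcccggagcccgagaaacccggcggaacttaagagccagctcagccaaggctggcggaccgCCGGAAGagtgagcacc
Mrps17: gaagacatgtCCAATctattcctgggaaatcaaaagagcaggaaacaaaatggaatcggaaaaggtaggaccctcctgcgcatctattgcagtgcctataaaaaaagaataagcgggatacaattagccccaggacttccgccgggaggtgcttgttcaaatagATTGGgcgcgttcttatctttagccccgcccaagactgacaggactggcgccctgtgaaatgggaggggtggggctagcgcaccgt
Mrpl41: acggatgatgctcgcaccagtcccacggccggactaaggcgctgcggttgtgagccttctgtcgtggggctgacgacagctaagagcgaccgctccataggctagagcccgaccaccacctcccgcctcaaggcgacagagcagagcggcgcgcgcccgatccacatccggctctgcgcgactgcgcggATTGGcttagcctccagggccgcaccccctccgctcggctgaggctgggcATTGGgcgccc
Mrps21: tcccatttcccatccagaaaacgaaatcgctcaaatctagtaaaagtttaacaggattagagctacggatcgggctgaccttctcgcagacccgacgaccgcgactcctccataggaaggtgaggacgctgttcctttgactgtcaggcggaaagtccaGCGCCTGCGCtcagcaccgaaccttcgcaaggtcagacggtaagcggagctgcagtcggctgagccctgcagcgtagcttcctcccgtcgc

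The motifs searched on both strands were CCGGAAG, the core bound by ETS factors such as GABP, GCGC and TGCGC with any 1 base between them, the core bound by NRF1, ATGGCGGC, the core bound by YY1, and the CCAAT box. GABP, also called NRF2, and NRF1 are known regulators of nuclear genes for mitochondria. A RefSeq promoter was found for 68 of the 77 members. CCGGAAG was in 17 of the 68 (25%), against 7.05% of 27025 promoters of the same length. These 27025 were taken whether or not their genes were in the expression matrix, and no share over matrix genes alone was computed. The NRF1 core was in 9 (13.2%), against 3.86% of all. The CCAAT box, at 36.8% of members and 34.5% of all, and ATGGCGGC, at 1.47% and 1.04%, stood at similar shares. Among the promoters printed, the Ict1 window held 1 CCGGAAG, the Mrps21 window held 1 NRF1 core, and the windows of Mrps17 and Mrpl41 held 2 CCAAT boxes each. A match here is a run of letters and not a bound site.

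Before the changes, the libraries themselves need a short account. The files hold no counts, so depth is unknown, and no precision from counting can be given. No member was listed at 0 in any library, but 740 genes were listed at 0 in replicate 3 of resection with vagotomy, against 203 to 311 in the other libraries. On the scale of FPKM + 1, that library was at least 3-fold below both others of its group for 5 members (Mrpl14, Mrpl23, Mrpl54, Mrps11 and Mrps15) and 3-fold above for Mrpl50. Replicate 1 of resection was the highest of its group for 55 of the 77 members, and replicate 2 was the lowest for 40. Of 12 ventricular cardiomyocyte markers all 12 were measured, at a summed level of 19251 to 42012 FPKM in resection with vagotomy, 15457 to 25797 FPKM in resection and 22794 to 25595 FPKM in sham. Between resection with vagotomy and resection, 9 of the 12 had a positive log2 change and 3 a negative one. At a limma adjusted p under 0.05, 1 was higher and 2 were lower (25% of the list, beside 3.52% of all tested genes). The defining markers Myh6 and Actc1 were nevertheless listed at 0 in all 3 libraries of resection with vagotomy. Such zeros in a file without counts can be failed estimates, so the summed cardiomyocyte level there leaves out what these genes may have had. The 8 macrophage markers summed to 199 to 247 FPKM in resection with vagotomy, 152 to 276 FPKM in resection and 38.6 to 62.9 FPKM in sham. The 5 measured neutrophil markers summed to 106 to 300 FPKM in resection with vagotomy, 195 to 280 FPKM in resection and 17.9 to 40.9 FPKM in sham. The 5 measured erythroid markers summed to 245 to 545 FPKM in resection with vagotomy, 724 to 4052 FPKM in resection and 405 to 1253 FPKM in sham. The 4 epicardial markers summed to 16.0 to 26.0 FPKM in resection with vagotomy, 33.0 to 51.8 FPKM in resection and 33.5 to 38.0 FPKM in sham. The 5 smooth muscle and pericyte markers summed to 419 to 585 FPKM in resection with vagotomy, 340 to 396 FPKM in resection and 338 to 411 FPKM in sham. Sums of endothelial and of fibroblast markers overlapped between groups. What part these cells and libraries have in the changes of the members was not tested. In bulk tissue, fewer cells of a type and less RNA per cell cannot be told apart.

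The members ranged widely in level. Ict1 had the highest mean of the 77, at 341 FPKM over the 9 libraries, followed by Mrps23 (100.4), Mrpl42 (95.0) and Mrpl41 (91.6), while the median member stood at 24.1 FPKM. Mrps33 (3.76), Mrpl11 (5.06), Mrps36 (5.31) and Mrpl1 (6.06 FPKM) were the lowest. All 77 passed the filter of a mean of at least 1 FPKM that 13249 genes passed. At 33 members (42.9%) the deposited locus also held another gene, close to the 45.7% of all matrix genes, and the reads of such neighbours cannot be separated with certainty. For Ict1 the neighbour is C920011F04Rik, at 0.206 to 1.71 FPKM in the 9 libraries.

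Resection with vagotomy differed from resection in 9 members by an adjusted p under 0.05 (limma on log2(FPKM + 1), adjusted over all 13249 genes). This is 11.7% of the members, beside 3.52% of all tested genes. Ict1, Mrps17 and Mrpl36 were lower, beside 1.55% of all genes called lower. Mrpl41, Mrps21, Mrpl13, Mrps25, Mrpl19 and Mrpl39 were higher, beside 1.97% of all genes called higher. Large and small subunit members stood on both sides.

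**Figure D1:**
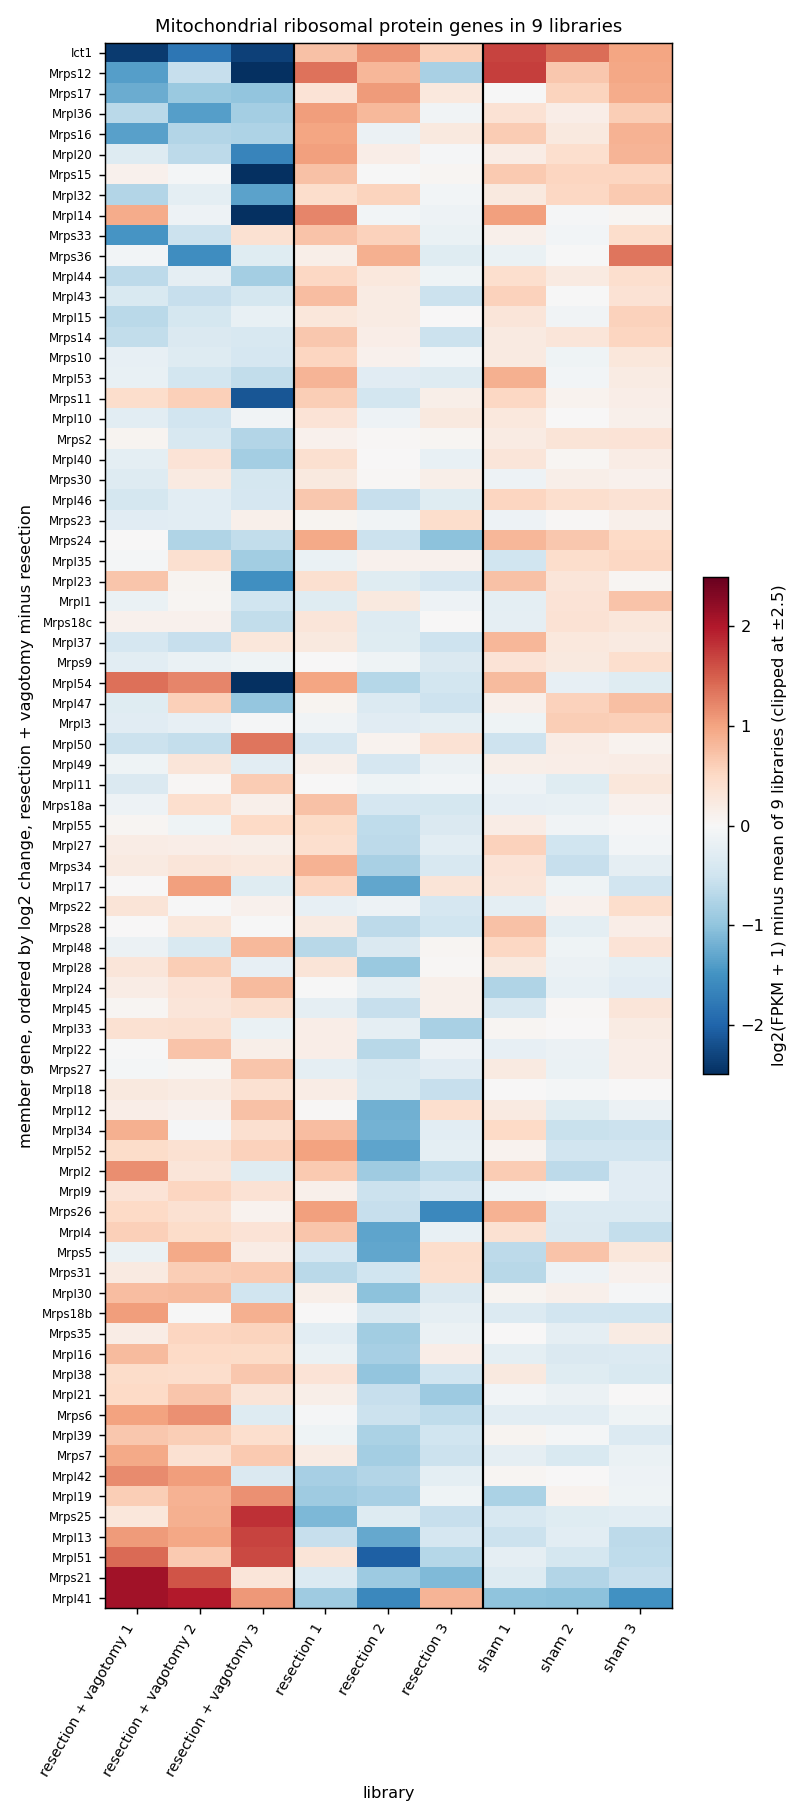
Each row is 1 of the 77 member genes, ordered by its change between resection with vagotomy and resection, and each column is 1 of the 9 libraries, with resection with vagotomy at the left. Colour is log2(FPKM + 1) minus the gene's mean over the 9 libraries. Ict1 at the top is lowest in all 3 libraries of resection with vagotomy and Mrpl41 at the bottom is highest there, while the resection and sham columns resemble each other.

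Ict1, the rescue factor, had 41.5, 62.5 and 43.0 FPKM in resection with vagotomy, against 366.8, 484.0 and 334.6 FPKM in resection and 714.7, 584.6 and 440.7 FPKM in sham. The libraries with vagotomy lay below all 6 others with no overlap. The log2 change was -2.99 ± 0.30 (SE) against resection, with a limma adjusted p of 0.0014, and -3.54 ± 0.30 against sham, with a limma adjusted p of 0.000305. Both calls held in 20 of 20 alternative fits, including all 9 that leave out 1 library, where the change against resection stayed between -3.18 and -2.84. Within the summed FPKM of the 77 members, Ict1 took 1.44% to 2.18% in resection with vagotomy, 12.1% to 22.8% in resection and 15.7% to 22.4% in sham. It was the member with the highest FPKM in each of the 6 libraries without vagotomy and in none of the 3 with it.

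**Figure D2:**
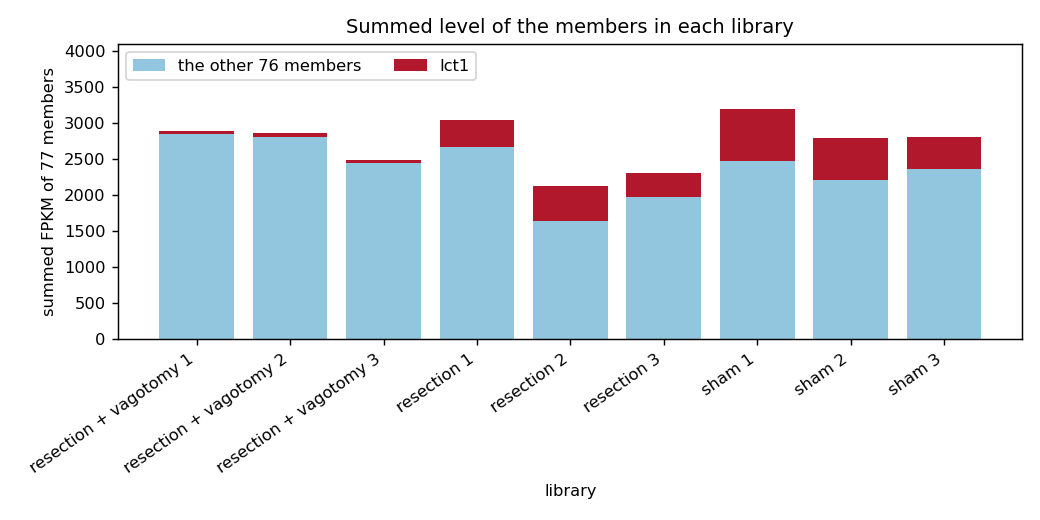
Bars give the summed FPKM of the 77 members in each library, with Ict1 in red on top of the other 76 in blue. The red part is a thin line in the 3 libraries of resection with vagotomy, at 1.44% to 2.18% of the bar, and 12.1% to 22.8% of the bar in the other 6.

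Without Ict1 the summed level was 2843, 2804 and 2441 FPKM in resection with vagotomy, 2671, 1641 and 1977 FPKM in resection and 2479, 2213 and 2368 FPKM in sham. The 3 groups overlapped. The median log2 change of the 77 members between resection with vagotomy and resection was 0.32, beside 0.02 for all tested genes, and 31 of 77 changes (40.3%) were below 0, beside 48.2% of all genes. It was 0.07 without replicate 2 of resection, the library lowest for 40 members, and to 0.04 over the 44 members alone at their locus. The spread of the changes was 0.94 (SD) over members and 0.81 over all genes, and 19 members (24.7%) moved by more than 1 in either direction, beside 13.8% of all genes.

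Among the large subunit genes that rose, Mrpl41, a protein specific to mitochondria, had 246, 229 and 122 FPKM in resection with vagotomy, against 30.5, 18.0 and 103 FPKM in resection and 28.0, 27.7 and 19.4 FPKM in sham. The groups did not overlap, but replicate 3 of resection came close to replicate 3 with vagotomy. Its log2 change was 2.27 ± 0.54 against resection (limma adjusted p = 0.0495) and 2.90 ± 0.54 against sham (limma adjusted p = 0.0145). The first call, near the threshold, held in 1 of 9 fits that leave out a library, and without replicate 3 of resection the change was 2.97.

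Mrpl13, the counterpart of bacterial L13, had 81.6, 75.9 and 125 FPKM in resection with vagotomy, against 25.5, 15.2 and 28.4 FPKM in resection and 25.9, 31.6 and 23.99 FPKM in sham. Every library with vagotomy lay above all of the other 6. It rose by 2.00 ± 0.30 (log2) against resection (limma adjusted p = 0.0165) and 1.73 ± 0.30 against sham (limma adjusted p = 0.0126). The call against resection held in 8 of 9 leave-outs and reached an adjusted p of 0.058 without replicate 2 of resection. Its deposited locus also holds Mtbp.

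Mrpl19, the counterpart of bacterial L19, had 17.3, 20.8 and 25.2 FPKM in resection with vagotomy, against 5.46, 5.75 and 10.1 FPKM in resection and 5.86, 11.8 and 10.1 FPKM in sham. Its groups with and without vagotomy did not overlap. On the log2 scale it was 1.48 ± 0.31 higher than in resection (limma adjusted p = 0.0362). Mrpl39, a mitochondria-specific protein, had 23.3, 22.2 and 19.4 FPKM in resection with vagotomy, against 13.1, 7.78 and 9.68 FPKM in resection and 15.0, 13.6 and 10.96 FPKM in sham. Its change of 1.04 ± 0.25 against resection sat at the threshold (limma adjusted p = 0.0494), and against sham the limma adjusted p was 0.0996. Mrpl19 shares its locus with Gcfc2, and Mrpl39 stands alone. Mrpl51 had 115, 67.1 and 136 FPKM in resection with vagotomy, against 53.2, 9.61 and 25.4 FPKM in resection and 36.1, 31.1 and 27.0 FPKM in sham, with no overlap. Its changes of 2.05 ± 0.51 against resection and 1.67 ± 0.51 against sham did not pass (limma adjusted p = 0.0553 and 0.062).

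Mrpl36, a small zinc-binding protein of the large subunit, was the other large subunit gene that fell. It had 13.4, 7.81 and 11.7 FPKM in resection with vagotomy, against 46.0, 39.1 and 20.5 FPKM in resection and 28.3, 24.7 and 34.0 FPKM in sham. No library with vagotomy reached the lowest of the other 6. The log2 change was -1.55 ± 0.33 against resection (limma adjusted p = 0.0361) and -1.35 ± 0.33 against sham (limma adjusted p = 0.0329).

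In the small subunit, Mrps21, the counterpart of bacterial S21, had 134, 92.3 and 37.6 FPKM in resection with vagotomy, against 23.9, 15.7 and 13.7 FPKM in resection and 24.3, 17.9 and 20.1 FPKM in sham. Replicate 3 with vagotomy was the lowest of its group and still above all 6 other libraries. The log2 change was 2.11 ± 0.42 against resection (limma adjusted p = 0.0336) and 1.87 ± 0.42 against sham (limma adjusted p = 0.0261). Mrps25, a mitochondria-specific protein, had 22.4, 34.5 and 67.3 FPKM in resection with vagotomy, against 7.86, 14.3 and 11.8 FPKM in resection and 13.5, 14.5 and 15.0 FPKM in sham, a change of 1.68 ± 0.37 against resection (limma adjusted p = 0.0404). Its locus also holds Nr2c2.

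Mrps17, the counterpart of bacterial S17, fell. It had 14.4, 18.1 and 17.5 FPKM in resection with vagotomy, against 45.0, 74.9 and 42.5 FPKM in resection and 35.2, 52.7 and 68.0 FPKM in sham. The 3 libraries with vagotomy lay close together and below all others. This gave a log2 change of -1.60 ± 0.31 against resection (limma adjusted p = 0.0312) and -1.54 ± 0.31 against sham (limma adjusted p = 0.0185).

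**Figure D3:**
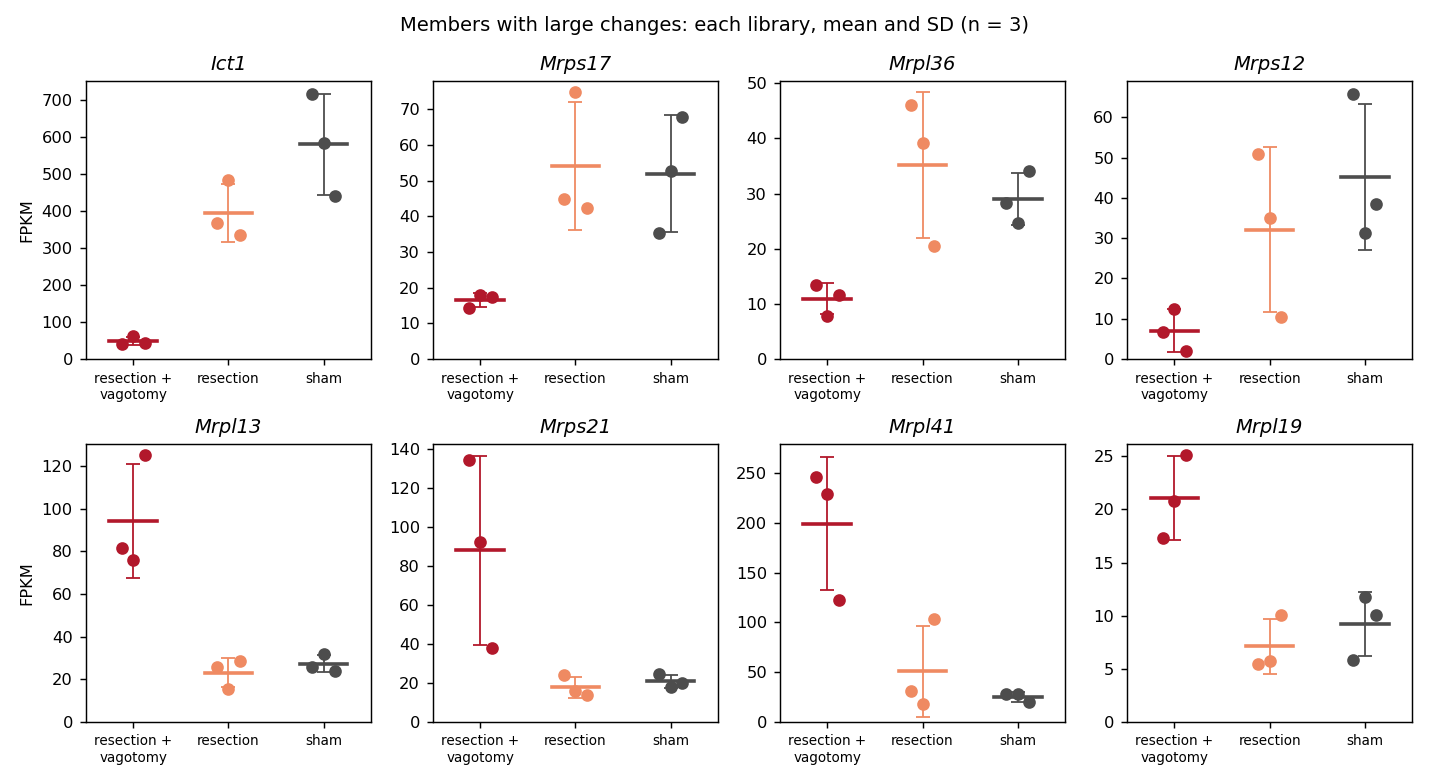
FPKM of 8 members in every library, with the mean as a bar and the SD as whiskers (n = 3 per group), resection with vagotomy at the left of each panel. Ict1, Mrps17, Mrpl36 and Mrps12 are low after vagotomy, and Mrpl13, Mrps21, Mrpl41 and Mrpl19 are high. For Mrps12, replicate 3 of resection at 10.50 FPKM falls between libraries with vagotomy.

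These counts depend on the libraries. Leaving out 1 library gave 3, 2 and 4 members past the threshold without replicates 1, 2 and 3 of resection with vagotomy, 9, 1 and 6 without those of resection, and 5, 2 and 2 without those of sham, while the share of all genes called ran between 0.317% and 4.46%. Without the unusual replicate 3 with vagotomy the 4 members (Ict1, Mrpl13, Mrps21 and Mrpl42) stood beside 0.513% of all genes. A fit on the 6 compared libraries alone called 1 member, Ict1. Libraries of the same number in both resected groups deviated together weakly (r = 0.117 to 0.199). With the replicate number as a block over all 9 libraries, sham included, 14 members passed (18.2%), beside 9.64% of all genes. These were the same 9 with Mrpl32, Mrpl51, Mrps12, Mrps16 and Mrps7. With trends on transcript length and GC content removed, 16 passed, 8 higher and 8 lower, beside 10.8% of all genes (690 higher and 729 lower). Under upper-quartile scaling and under quantile normalisation 8 passed, 4 higher and 4 lower, in place of 6 higher and 3 lower. Over all genes 506 (266 higher) and 535 (279 higher) passed in these fits, in place of 466 (261 higher).

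Counted without a model, 26 members (33.8%) had groups that did not overlap between resection with vagotomy and resection, beside 26.2% of all genes. Of these 17 were higher and 9 lower, beside 14% and 12.2% of all genes. At an unadjusted p under 0.05 there were 26 members as well (33.8%), beside 24.2% of all genes. With 3 libraries against 3, an exact two-sided permutation test cannot go below 0.1 for any single gene.

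The authors' deposited table of this comparison marked 23 members (29.9%), beside 17.8% of the tested genes it could assess, with 14 higher and 9 lower after vagotomy. It held all 9 named above. In the authors' deposited table Ict1 stood at 48.8 FPKM in resection with vagotomy and 394 FPKM in resection (q = 0.000995). That table also marked Mrpl20 lower, at 20.04 FPKM in resection with vagotomy and 48.9 FPKM in resection, and Mrpl42 higher, at 144 FPKM in resection with vagotomy and 55.8 FPKM in resection.

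Against sham, resection with vagotomy differed in 13 members (16.9%), beside 10.1% of all tested genes. Of these 6 were higher and 7 lower, beside 5.81% and 4.26% of all genes. With trends on transcript length and GC content removed the split was 6 higher and 13 lower. Over all genes that fit called 1143 higher and 1246 lower, where the main fit called 770 and 564. This comparison shares its vagotomy libraries with the last one, so that 8 members were called in both is no second observation. The 5 members called here alone were Mrps12, Mrps16, Mrpl32 and Mrpl44, which were lower, and Mrps18b, which was higher.

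Mrps12, the counterpart of bacterial S12 at the decoding centre, had 6.78, 12.50 and 1.90 FPKM in resection with vagotomy, against 51.0, 34.98 and 10.50 FPKM in resection and 65.8, 31.2 and 38.6 FPKM in sham. All 3 libraries with vagotomy lay below sham, but 1 resection library lay within their range. The log2 change was -2.71 ± 0.63 against sham (limma adjusted p = 0.0291) and -2.05 ± 0.63 against resection (limma adjusted p = 0.0945, and 0.0343 with the replicate block). Mrps16, the counterpart of bacterial S16, had 5.79, 9.47 and 9.24 FPKM in resection with vagotomy, against 33.3, 14.7 and 19.6 FPKM in resection and 26.0, 19.7 and 30.9 FPKM in sham. Its change was -1.54 ± 0.33 against sham (limma adjusted p = 0.0223), and -1.31 ± 0.33 against resection (limma adjusted p = 0.0573, and 0.0445 with the block).

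Mrpl44, a protein with an RNase III-like fold whose variants cause cardiomyopathy in humans, had 17.0, 23.3 and 14.7 FPKM in resection with vagotomy, against 39.9, 33.0 and 25.3 FPKM in resection and 37.2, 32.3 and 37.1 FPKM in sham. The libraries with vagotomy lay below all 6 others. Its log2 change was -0.94 ± 0.26 against sham (limma adjusted p = 0.0474). Its locus also holds Wdfy1. Mrpl32, which matures only after cleavage by the inner membrane m-AAA protease, had 10.1, 14.7 and 6.35 FPKM in resection with vagotomy, against 24.2, 26.2 and 16.6 FPKM in resection and 21.1, 25.5 and 28.1 FPKM in sham, a change of -1.24 ± 0.31 against sham (limma adjusted p = 0.0353). Mrps18b, 1 of 3 paralogues of bacterial S18, had 28.1, 12.9 and 24.96 FPKM in resection with vagotomy, against 13.1, 9.87 and 10.97 FPKM in resection and 10.01, 9.13 and 8.88 FPKM in sham, a change of 1.08 ± 0.29 against sham (limma adjusted p = 0.0443). This call was lost with the GC and length trends removed and without replicate 3 with vagotomy, and held in 10 of 20 alternative fits and 3 of 9 leave-outs (highest limma adjusted p = 0.155). The other two paralogues, Mrps18a and Mrps18c, had changes of 0.23 and -0.28 against sham and did not pass (limma adjusted p = 0.677 and 0.565).

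The median log2 change against sham was 0.11, beside 0.03 for all genes, and 37 members were below 0 (48.1%, beside 48% of all genes). It was -0.13 over members alone at their locus and -0.11 with the GC and length trends removed, so the middle of the group had no settled direction. That trend-free fit called 19 members, beside 18.2% of all genes. Changes beyond 1 were found in 18 members (23.4%, beside 18.1% of all genes), non-overlapping groups in 36 (46.8%, beside 36.7%), with 17 higher and 19 lower beside 19.7% and 17%, and an unadjusted p under 0.05 in 28 (36.4%, beside 30.1%). Leaving out 1 library gave 4, 8 and 7 members without replicates 1, 2 and 3 of resection with vagotomy. These were 5.19%, 10.4% and 9.09% of members, beside 4.51%, 4.83% and 4.02% of all genes. Without those of resection there were 18, 12 and 11 (23.4%, 15.6% and 14.3%), beside 12.8%, 11% and 8.21% of all genes. Without those of sham there were 7, 1 and 1 (9.09%, 1.3% and 1.3%), beside 8.92%, 0.755% and 0.898%. Without replicate 2 or 3 of sham only Ict1 remained. A test for any difference among the 3 groups called 9 members (limma F-test), beside 5.89% of all genes, and Mrps16 was among them while Mrpl39 was not.

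**Figure D4:**
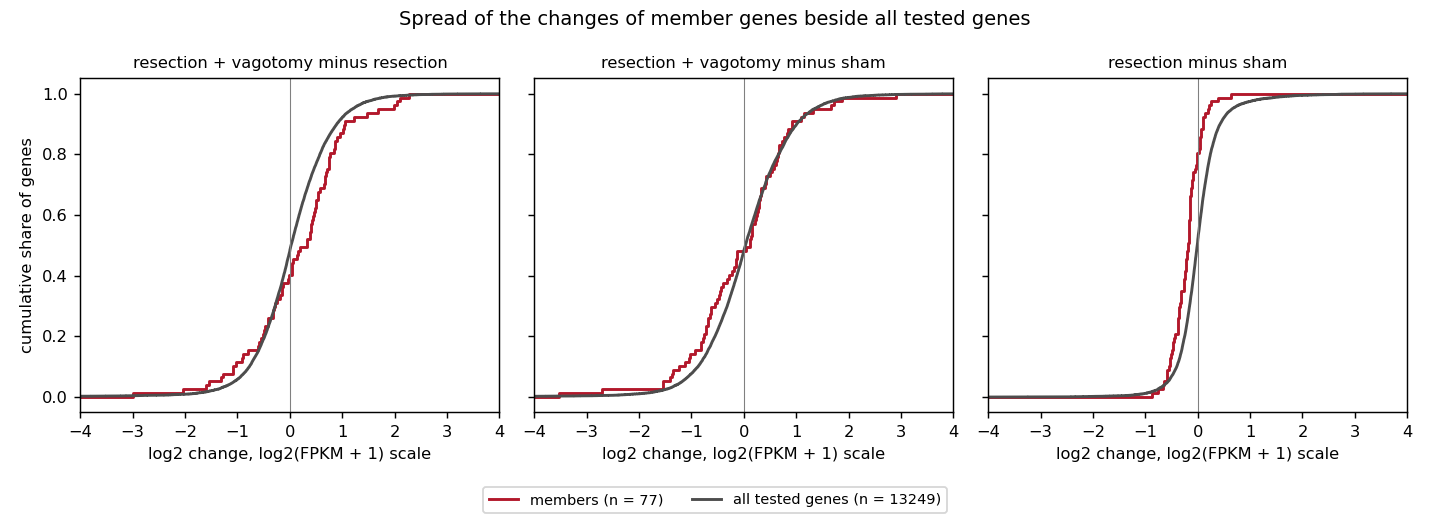
Cumulative share of genes (vertical axis) against log2 change (horizontal axis, log2(FPKM + 1) scale) for the 77 members in red and all 13249 tested genes in grey, for the 3 comparisons. With vagotomy set against resection the red curve lies above the grey one at the left end and below it at the right. With vagotomy set against sham it lies above the grey one at the left and near it at the right, and between resection and sham it lies to the left of the grey one with a median of -0.18 beside -0.01.

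Resection alone, set against sham, moved no member past the threshold, beside 0.294% of all tested genes by limma. At an unadjusted p under 0.05 there was 1 member, Mrps9 (1.3%, beside 5.89% of all genes), and 6 members had groups that did not overlap (7.79%, beside 10.8%), all lower in resection. No member changed by more than 1, beside 3.83% of all genes. The sign was uneven, with 62 of 77 changes below 0 (80.5%, beside 51.3% of all genes) and a median of -0.18, beside -0.01. The median was -0.42 without replicate 1 of resection and -0.08 without its replicate 2.

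The most negative changes between resection and sham were those of Mrps24 (-0.86 ± 0.45) and Mrpl47 (-0.75 ± 0.38). The most positive were those of Mrpl41 (0.63 ± 0.54) and Mrpl24 (0.38 ± 0.26), and none of these was past the threshold. Mrpl47 had 10.01, 7.30 and 6.31 FPKM in resection and 10.50, 14.7 and 16.6 FPKM in sham, with no overlap. Mrpl42 had 47.0, 50.3 and 71.0 FPKM in resection and 87.7, 85.7 and 77.8 FPKM in sham, also with no overlap (log2 change -0.59 ± 0.39, limma adjusted p of 1). With vagotomy added, Mrpl42 stood at 193, 176 and 65.9 FPKM, on both sides of sham. The authors' deposited table of resection against sham marked 3 members (3.9%, beside 5.98% of its tested genes), Mrpl41 higher and Mrpl3 and Mrpl37 lower. For Mrpl3 the authors' deposited table gave 49.0 FPKM in resection and 75.6 FPKM in sham (q = 0.0391).

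Members known from human cardiomyopathy or mouse heart work were read whatever their values. Mrpl3 had 45.7, 48.4 and 54.8 FPKM in resection with vagotomy, 52.3, 45.5 and 46.8 FPKM in resection and 51.8, 86.1 and 85.2 FPKM in sham, and replicate 1 of sham overlapped with resection. Mrps22 had 12.001, 9.33 and 10.2 FPKM in resection with vagotomy, 7.999, 8.53 and 6.72 FPKM in resection and 7.76, 10.2 and 13.0 FPKM in sham. Its change between resection with vagotomy and resection was 0.39 ± 0.24 (limma adjusted p = 0.351). Mrpl12, which also binds the mitochondrial RNA polymerase, had a change of 0.57 ± 0.40 in that comparison (limma adjusted p = 0.407), Mrps34 by 0.38 ± 0.41 (0.61), Mrpl45, which anchors the ribosome at the inner membrane, by 0.48 ± 0.27 (0.306), and Mrps5 by 0.74 ± 0.49 (0.385). Of these 8 genes, counted with Mrps12 and Mrpl44, none passed against resection, beside 3.52% of all genes, and 2 passed against sham, beside 10.1% of all genes.

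Mrpl37 and Mrps30, which share an ancestor, had changes of -0.04 ± 0.32 and -0.32 ± 0.24 between resection with vagotomy and resection. By class, 6 of 50 large subunit members were called in that comparison (4 higher and 2 lower, median 0.32) and 3 of 26 small subunit members (2 higher and 1 lower, median 0.18). Of members with a counterpart in the bacterial ribosome 5 of 44 were called. Of those specific to the mitochondrial ribosome, Ict1 included, 4 of 29 were called, beside 3.52% of all tested genes in the same comparison. Neither of these pairs of shares was tested for a difference. The most variable members within groups were Mrpl54 (pooled SD 1.48), Mrpl14 (1.26) and Mrps12 (0.97 on the log2 scale). Mrpl54 had 61.6, 54.8 and 2.71 FPKM in resection with vagotomy, against 46.4, 13.6 and 16.5 FPKM in resection and 40.7, 19.7 and 18.3 FPKM in sham, and Mrpl14 had 18.3, 8.23 and 0.384 FPKM with vagotomy. In both, replicate 3 with vagotomy was the low one.

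Over the 77 members, log2 levels in pairs of libraries of 1 group correlated at r = 0.718 to 0.968 (9 pairs), resection with sham at 0.819 to 0.949 (9 pairs), and resection with vagotomy with either other group at 0.421 to 0.772 (18 pairs). Over all genes r was 0.880 to 0.951 within groups, 0.868 to 0.931 for resection with sham, and 0.746 to 0.895 for resection with vagotomy with either other group. Genes are not independent replicates, and the correlations describe these libraries only. Change and GC content were nearly unrelated over the 76 members with annotation (Spearman's rho 0.02 between resection with vagotomy and resection), while over all 13118 annotated genes rho was 0.34.

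Other genes of mitochondrial translation were read from lists chosen by function. Between resection with vagotomy and resection, 0 of 5 ribosome subunits with other names passed, 0 of 14 translation factors, 0 of 29 assembly genes, 1 of 20 aminoacyl-tRNA synthetases, 0 of 12 genes of mitochondrial DNA transcription and upkeep and 0 of 11 regulators of mitochondrial biogenesis, by limma beside the same 3.52% of all genes. At an unadjusted p under 0.05 the counts were 0, 2, 6, 4, 6 and 4 (0%, 14.3%, 20.7%, 20%, 50% and 36.4% of the lists), on both sides of the 24.2% of all genes. Dap3, a small subunit protein, had 31.6, 36.6 and 38.0 FPKM in resection with vagotomy, 41.1, 30.8 and 27.7 FPKM in resection and 29.0, 30.4 and 33.7 FPKM in sham. Its levels overlapped throughout.

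The synthetase that passed was Cars2, which charges mitochondrial cysteine tRNA. It had 13.6, 10.1 and 13.9 FPKM in resection with vagotomy, against 6.41, 3.51 and 5.46 FPKM in resection and 6.55, 4.66 and 4.29 FPKM in sham, with no overlap and a change of 1.16 ± 0.27 against resection (limma adjusted p = 0.0451). Lars2, which charges leucine tRNA, was at 679, 876 and 1479.9 FPKM in resection with vagotomy, against 568, 269 and 217 FPKM in resection and 342, 255 and 335 FPKM in sham, and passed against sham (1.63, limma adjusted p = 0.0384) but not against resection (1.57, limma adjusted p = 0.0653). Tufm, the mitochondrial elongation factor that brings aminoacyl-tRNA, had 44.7, 37.2 and 39.8 FPKM in resection with vagotomy, against 26.7, 26.5 and 15.6 FPKM in resection and 38.4, 35.02 and 38.9 FPKM in sham. Resection lay below both other groups with no overlap, but neither change passed (0.83 for vagotomy with limma adjusted p = 0.0951, and -0.72 for resection against sham with limma adjusted p = 0.549). Next by p between resection and sham came Myc, a biogenesis regulator (1.18, limma adjusted p = 0.651), and Lrpprc of the transcription list (-0.64). Neither passed.

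Between resection with vagotomy and sham, 0 of 5 subunits with other names passed, 0 of 14 translation factors and 2 of 29 assembly genes (6.9%). So did 2 of 20 synthetases (10%), 2 of 12 genes of mitochondrial DNA transcription and upkeep (16.7%) and 1 of 11 biogenesis regulators (9.09%). The share of all genes was 10.1%. Among assembly genes, Rbfa, which matures the small subunit RNA, was higher in resection with vagotomy than in sham (1.69, limma adjusted p = 0.0228), and Mterfd1, a large subunit assembly protein also named Mterf3, was lower (-1.34, limma adjusted p = 0.024). Nsun4, an rRNA methyltransferase that joins the subunits, had 17.5, 19.5 and 24.8 FPKM in resection with vagotomy, against 8.63, 10.1 and 11.1 FPKM in resection and 9.62, 11.6 and 13.1 FPKM in sham, and its change of 0.97 against resection fell just outside the threshold (limma adjusted p = 0.0504). Slirp and Fastkd5, which act on mitochondrial transcripts, and Yy1, a transcription factor of mitochondrial genes among many others, were lower in resection with vagotomy than in sham (-1.91, -0.95 and -1.08, limma adjusted p = 0.0481, 0.0481 and 0.045). Tfam, which packages and transcribes mitochondrial DNA, did not pass in any comparison and stood at 36.9, 55.4 and 118 FPKM in resection with vagotomy, 17.6, 14.8 and 51.2 FPKM in resection and 24.5, 40.6 and 24.7 FPKM in sham.

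**Figure D5:**
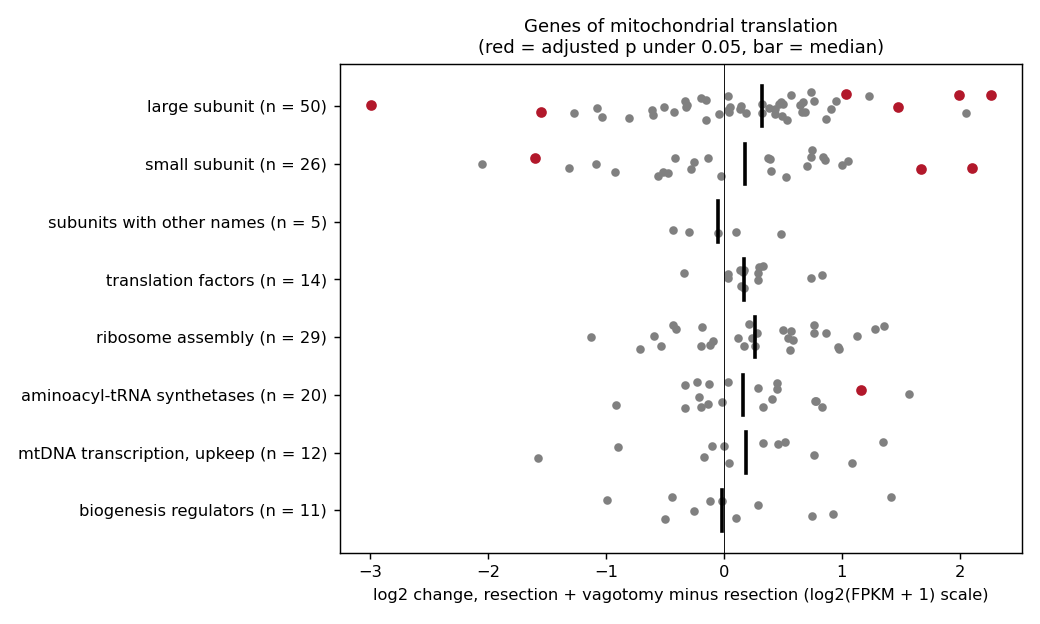
Each dot is a gene, placed by its log2 change between resection with vagotomy and resection, with the 2 subunits of the ribosome (Ict1 in the large one) above 6 lists of other genes of mitochondrial translation. Red dots passed the threshold and black bars are list medians. Of the red dots 9 are members and 1 is Cars2.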

How the data were processed

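Per the submitters' processing notes, the authors used TopHat2 2.0.9, Cufflinks 2.1.1 and Cuffdiff 2.1.1 on GRCm38. The deposited matrix holds the authors' FPKM per gene with a pseudocount of 1 added, which was subtracted, for 14479 genes and 9 libraries. The authors' deposited Cuffdiff tables give each gene its group FPKM with a q-value and p-value, in one table for the effect of resection and in another for that of adding vagotomy. How reads matching several genes were shared out is not given in the sources used here. The deposited values are FPKM without counts, so depth is unknown and no count test was run.

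Changes were tested with limma 3.58.1 in R 4.3.3 on log2(FPKM + 1), which understates changes of low genes. One fit held all 9 libraries with a mean per group and moderation with a trend, and kept the 13249 genes averaging 1 FPKM or more. P-values are two-sided, with Benjamini-Hochberg adjustment over all 13249 genes and a threshold of 0.05. The code was tested on simulated data. The members and the gene lists were chosen with earlier results of these data known. Named members are Ict1, those past the threshold, those with the widest changes, the highest, lowest and most variable levels, those known from heart disease, and paralogues. Of other genes of mitochondrial translation, Dap3, Tufm and Tfam are named, with those of smallest p in each comparison. Lars2, Slirp, Fastkd5 and Yy1, past the threshold against sham, were chosen after their values were seen.

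Libraries of resection with vagotomy and of resection that carry the same replicate number deviated together weakly from their group means (r = 0.199, 0.141 and 0.117 over all tested genes). The replicate number was therefore used as a block in an alternative fit, a pairing read from the data and not stated by the labels. These numbers come from the sample titles. For replicate 3 the authors' own column names carry a different number in each group. Alternatives were other pseudocounts, filters, scalings and moderation, the 6 compared libraries alone, the replicate block, each library left out, members alone at their locus, and, added after the data were seen, GC and length trends removed and members of at least 10 FPKM. Positions, lengths and GC content come from the GENCODE mouse annotation, which matched 76 members, and promoters from RefSeq, on GRCm38.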

Additional observations from a re-analysis of the deposited data

How the results depend on the processing

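Against resection, resection with vagotomy had 9 members past the threshold by the reported fit. There was 1 with the 6 compared libraries alone, 14 with the replicate block and 16 with GC and length trends removed. Over all genes the 466 calls became 29, 1277 and 1419 in these 3 alternatives. Without a new fit, 5 of the 9 were among the 44 members alone at their locus (11.4%, beside 11.7% of all 77). Leaving out 1 library gave 1 to 9 members and 42 to 591 genes. The median change of members ran from 0.069 to 0.48 across the leave-outs and was 0.037 alone at their locus. Against sham, the 13 members became 1 to 18 across the leave-outs. Of the 13, 7 were among the 44 alone at their locus (15.9%, beside 16.9% of all 77). The 1334 genes became 2413 with the replicate block, 2389 with the trends removed and 100 to 1701 across the leave-outs. The median was -0.13 alone at their locus and -0.11 with the trends removed. The F-test's 9 members became 15 with the replicate block, 17 with the trends removed and 2 to 12 across the leave-outs. Over all genes its 781 calls became 1632, 1930 and 112 to 1087 in the same fits. Of the 9 members, 5 were among the 44 alone at their locus. Between resection and sham 0 members passed under every alternative, while the 39 genes became 66 and 23 with pseudocounts of 0.1 and 5, 13 with the 6 compared libraries alone, 74 with robust moderation, 86 with the trends removed and 11 to 59 across the leave-outs. The median of members was -0.42 to -0.076 across the leave-outs. In the authors' deposited tables a q under 0.01 left 13 of the 23 members marked between resection with vagotomy and resection, and 1 of the 3 marked between resection and sham. The median of members against sham, which has no test, thus changed sign in 2 alternatives. No named member past the threshold changed sign, and other pseudocounts, filters, scalings and moderation moved no count of members by more than 1.5 times. The cause was not tested where a count moved.

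Sham libraries and libraries of the same number in the other groups deviated together unevenly. The r was 0.498, 0.197 and 0.013 with resection, and 0.186, 0.170 and -0.019 with resection with vagotomy. The replicate block was a single factor over all 9 libraries, so its results against resection rest on the sham libraries as well. The count with the block against sham, 19 members beside 18.2% of all genes, is given only here. Depth is unknown, so what depth limits cannot be stated, and 3 libraries per group limit every test. Of the members past the threshold, only Ict1 kept its call in all 9 leave-outs in both comparisons.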

Other observations

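The RNAs of the mitochondrial ribosome were looked at after their values had been seen. The small subunit RNA mt-Rnr1 had 2031, 2013 and 817 FPKM in resection with vagotomy, against 5361, 8521 and 5108 FPKM in resection and 3090, 4799 and 4384 FPKM in sham. All 3 libraries with vagotomy lay below the other 6, with a log2 change of -2.04 against resection (limma adjusted p = 0.0407) and -1.43 against sham (limma adjusted p = 0.0698). The large subunit RNA mt-Rnr2 had 3278, 3067 and 1122 FPKM in resection with vagotomy, against 5606, 8774 and 3438 FPKM in resection and 3532, 3949 and 9250 FPKM in sham, and its change of -1.30 against resection did not pass (limma adjusted p = 0.199).

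Lists of related machinery were read beside the members. Between resection with vagotomy and resection, 8 of 82 cytosolic ribosomal protein genes passed (9.76%), 4 higher and 4 lower. So did 4 of 36 genes of respiratory complex I (11.1%), 1 higher and 3 lower, and 3 of 42 genes of complexes III to V (7.14%), 2 higher and 1 lower. These shares stood beside 3.52% of all tested genes and 11.7% of the members. Against sham the counts were 9, 8 and 8 (11%, 22.2% and 19%), of which 5, 7 and 7 were lower. There the shares were 10.1% of all genes and 16.9% of the members. Between resection and sham no gene of these lists passed by limma, beside 0.294% of all genes. At an unadjusted p under 0.05 there were 0, 0 and 2, beside 5.89% of all genes. Changes below 0 were 45 of 82, 35 of 36 and 41 of 42, beside 51.3% of all genes. Whether these lists differ from the members was not tested.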
